A study of Arundo donax with 12 samples.

Results

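Nitrate reductase 1 (unigene Cluster-14691.36103) and nitrate transporter 2.5 (unigene Cluster-14691.17907) of giant reed, *Arundo donax*, were followed through all libraries of a cadmium experiment. These 2 unigenes of 126668 in the count table were taken by their identifiers and by the names that the study's annotation gives them, from best matches to Arabidopsis proteins. The study had listed both for a difference between root and leaf under cadmium in these same libraries, so that this difference followed from the choice. Nitrate reductase 1 gave more counts in roots than in leaves under both treatments, and its level in cadmium-treated roots rested largely on 1 library. Nitrate transporter 2.5 was low in leaves and spread over a wide range within both root groups. Neither unigene was called different between cadmium-treated and control plants, in roots or in leaves. With 3 libraries per group, sizeable changes could have been missed.

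Plants of a single ecotype, G10, were grown in pots, and leaves (L) and roots (R) were sampled after 3 months. Cd_R and Cd_L came from pots given cadmium nitrate at 4 mg/kg. CK_R and CK_L, the controls, came from pots given ammonium nitrate in its place, at 5.774 g/L by the sample labels, an amount that the study's sources give with other units or digits. Each of the 4 groups had 3 biological replicates, which makes 12 poly-A RNA-seq libraries. The study describes 3 plants per treatment, so that leaf and root libraries share plants, but the labels do not say which, and the organ comparisons and the interaction treat all libraries as independent. The study states that the ammonium nitrate was added to balance nitrogen between the treatments. The amounts as stated do not show this balance, with grams of ammonium nitrate against milligrams of cadmium nitrate per kg of soil. Both treatments supplied nitrate, by these amounts far more in the controls, and only the controls received ammonium. Nitrogen in the pots is not among the data used here. A response to cadmium and a response to the form or amount of nitrogen therefore cannot be told apart for these 2 unigenes. The experiment has 1 ecotype and no pot without a nitrogen salt.

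Plants take up nitrate from the soil through transporters in the plasma membrane of root cells. Those of the NRT2 family are the high-affinity ones, which work when nitrate is scarce, and in Arabidopsis NRT2.5 is the member best known for its expression in nitrogen-starved plants. Nitrate reductase, an enzyme of the cytosol that carries a molybdenum cofactor, then reduces nitrate to nitrite, which plastids reduce further to ammonium for the synthesis of amino acids. This step takes place in roots and in leaves, in proportions that differ between species, and transcripts of nitrate reductase are known to be induced by nitrate itself.

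Total counts per library ranged from 22157170 to 26033492, and levels are given as CPM, counts per 1000000 counts after TMM normalization over all 12 libraries. On this scale 3 counts in a library corresponded to 0.0996 to 0.170 CPM. Root and leaf libraries were far apart, with correlations of log2 CPM of 0.526 to 0.644 between the organs over 61242 unigenes, against 0.856 to 0.959 among roots and 0.929 to 0.966 among leaves. Within the roots, Cd_R replicate 1 and CK_R replicate 3 stood apart from the other 4 libraries and close to each other, with a correlation of 0.936 between them and of 0.856 to 0.910 with the others. They also had the most unigenes with a count, 105252 and 100357, against 81451 to 87756 in the other root libraries. Results for roots are therefore given with and without this pair, whose part in them was not tested.

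Nitrate reductase 1 had 133, 27.3 and 34.7 CPM in the Cd_R replicates 1 to 3, against 20.7, 27.9 and 37.9 CPM in the CK_R replicates 1 to 3. It had 4.96, 2.19 and 4.71 CPM in Cd_L, against 2.01, 17.5 and 2.38 CPM in CK_L. Cd_R replicate 1, with 3900 counts, was thus far above every other root library, whereas Cd_R replicates 2 and 3 lay within the range of CK_R. Among the leaves only CK_L replicate 2 exceeded 5 CPM. Group means were 65.0 ± 58.9 CPM in Cd_R, 28.8 ± 8.62 CPM in CK_R, 3.95 ± 1.53 CPM in Cd_L and 7.31 ± 8.86 CPM in CK_L (SD, n = 3 each).

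Nitrate transporter 2.5 had 21.7, 2.47 and 4.22 CPM in the Cd_R replicates 1 to 3, against 1.05, 0.921 and 24.6 CPM in the CK_R replicates 1 to 3. In leaves it had 1.04, 0.757 and 0.214 CPM in Cd_L, against 0.685, 1.57 and 0.170 CPM in CK_L, from 3 to 28 counts per library. One replicate of each root group, Cd_R replicate 1 and CK_R replicate 3, held over 20 CPM while the other 4 root libraries stayed under 5 CPM. The highest CK_R library was 26.7 times the lowest. Group means were 9.47 ± 10.6 CPM in Cd_R, 8.85 ± 13.6 CPM in CK_R, 0.670 ± 0.419 CPM in Cd_L and 0.810 ± 0.710 CPM in CK_L (SD, n = 3 each).

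**Figure D1:**
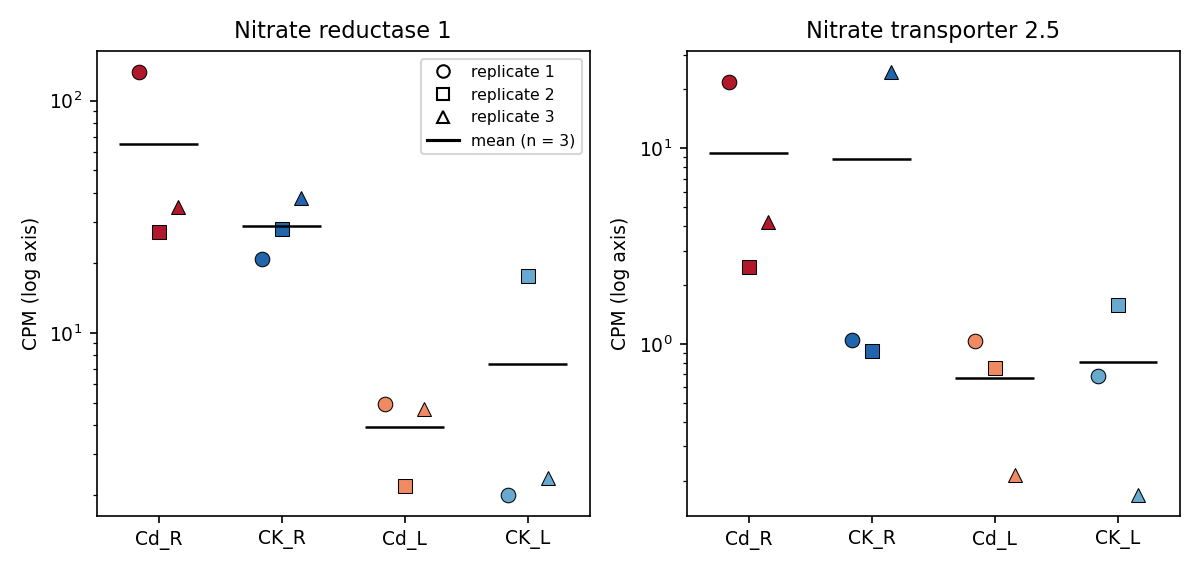
Level of nitrate reductase 1 and nitrate transporter 2.5 in each of the 12 libraries, in CPM on a log axis, with 1 point per library, shapes for the replicate number and lines for the mean of 3 libraries. Cd_R replicate 1 stood highest for the reductase, and Cd_R replicate 1 together with CK_R replicate 3 for the transporter, whereas the remaining roots ranged between 20.7 and 37.9 CPM for the reductase and between 0.921 and 4.22 CPM for the transporter.

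In the order of group means, nitrate reductase 1 was highest in Cd_R, then CK_R, CK_L and Cd_L. The libraries of Cd_R and CK_R overlapped, as did those of Cd_L and CK_L, so that neighbours of the same organ could not be separated. The lowest CK_R library, at 20.7 CPM, lay above the highest CK_L library, at 17.5 CPM. For nitrate transporter 2.5 the order was Cd_R, CK_R, CK_L and Cd_L, and CK_R and CK_L also overlapped, since CK_R replicates 1 and 2 were below CK_L replicate 2. The Cd_R libraries all lay above those of either leaf group. The levels of the 2 unigenes are not compared with each other, as transcript lengths were not used here. In bulk organs, fewer cells of a type and less RNA per cell cannot be told apart.

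Transcript counts of the 2 unigenes in roots were compared between the treatments by Cd_R vs CK_R, which measures neither nitrate uptake nor its reduction. For nitrate reductase 1 the log2 fold change was 1.16 ± 0.64 (SE), with a 95% interval (normal, from the SE) of −0.09 to 2.41. Its p by the quasi-likelihood test of edgeR was 0.113 unadjusted and 0.9994 adjusted. For nitrate transporter 2.5 the log2 fold change was 0.08 ± 1.40 (SE), with an interval of −2.66 to 2.81. Its p by the same test was 0.958 unadjusted and 0.9996 adjusted. No unigene of the 55317 tested reached the limits for a DEG (absolute log2 fold change from 1 upward, with an adjusted p up to 0.05), which is 0% called, while 4.62% had an unadjusted p under 0.05. DESeq2 called 186 DEGs in this comparison, and neither of the 2 unigenes was among them, with log2 fold changes of 1.16 for the reductase and 0.08 for the transporter. The interval of the transporter spans over 5 log2 units, so that a sizeable change in either direction was not detectable with these replicates.

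Single root libraries decided both values. Without Cd_R replicate 1 the log2 fold change of nitrate reductase 1 was 0.09, and without CK_R replicate 3 that of nitrate transporter 2.5 was 3.26, against −1.43 for the transporter without Cd_R replicate 1. With both of these libraries left out, Cd_R had 2.47 and 4.22 CPM of the transporter and CK_R had 1.05 and 0.921 CPM. The log2 fold change of the transporter was then 1.76 ± 0.45 (SE), with a p by edgeR of 0.0094 unadjusted and 0.610 adjusted. In that fit the reductase gave 0.35 ± 0.28 (SE), with a p by edgeR of 0.260 unadjusted and 0.855 adjusted. It had 27.3 and 34.7 CPM in Cd_R against 20.7 and 27.9 CPM in CK_R. These unadjusted p take no account of the choice of libraries to leave out. None of these fits without 1 or both libraries made either unigene a DEG.

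**Figure D2:**
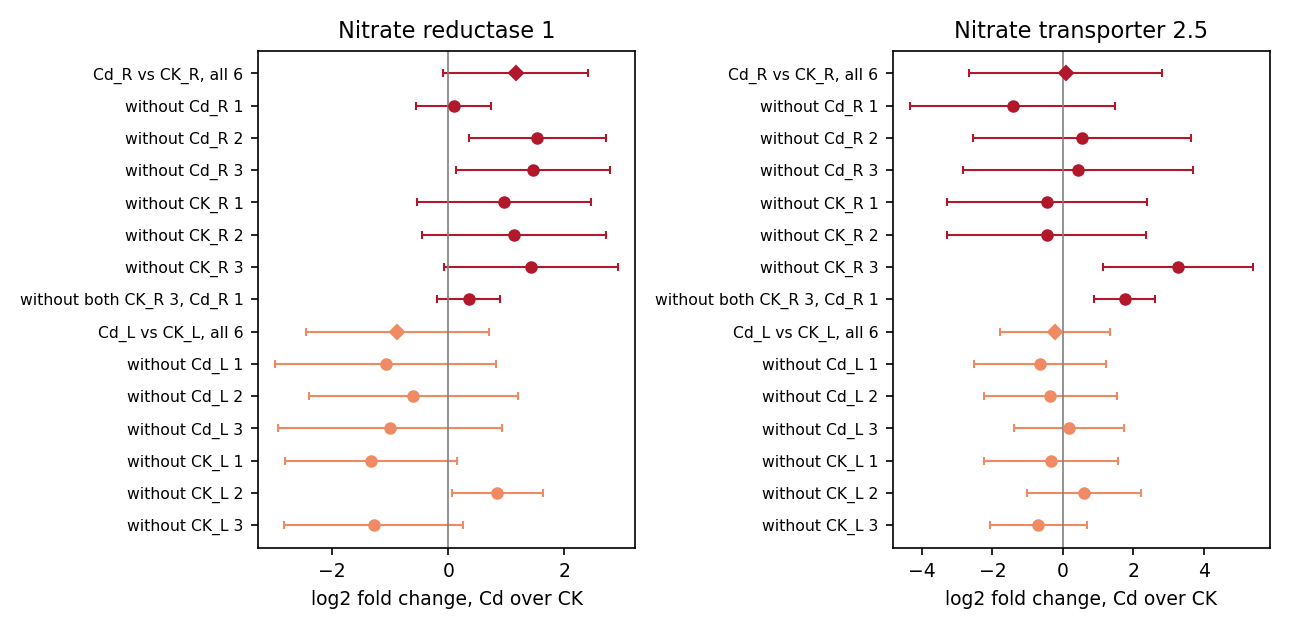
Log2 fold change of Cd over CK by edgeR, with bars for the 95% interval (normal, from the SE), for roots (upper rows) and leaves (lower rows), with all 6 libraries and with each library left out. The transporter in roots ran from −1.43 without Cd_R replicate 1 to 3.26 without CK_R replicate 3, and the reductase in leaves turned from negative to positive without CK_L replicate 2.

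In leaves, Cd_L vs CK_L gave a log2 fold change of −0.88 ± 0.80 (SE) for nitrate reductase 1, with a 95% interval of −2.45 to 0.70. Nitrate transporter 2.5 gave −0.23 ± 0.80 (SE), with an interval of −1.79 to 1.33. Both had an adjusted p of 0.9996 by edgeR, among 48194 unigenes of which 0% were DEGs and 4.25% had an unadjusted p under 0.05. DESeq2 called 73 DEGs in leaves, without either of the 2 unigenes. The negative value of the reductase rested on CK_L replicate 2, and without it the log2 fold change was 0.84. Without the same library the transporter gave 0.61.

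The difference between the root response and the leaf response was tested by the interaction of organ and treatment over all 12 libraries. Nitrate reductase 1 had an interaction of 2.06 ± 1.16 log2 units (SE), with an interval of −0.21 to 4.32. For nitrate transporter 2.5 it was 0.35 ± 1.82 log2 units (SE). Neither passed the test, with adjusted p of 1.00 for both by edgeR, where 0% of 61242 unigenes were DEGs and 3.17% had an unadjusted p under 0.05. The interaction of the reductase dropped to 0.32 log2 units without CK_L replicate 2, the leaf library with the most reductase counts. For the transporter it was 3.42 without CK_R replicate 3 and −1.14 without Cd_R replicate 1. The study had picked both unigenes on these libraries because they differed between root and leaf under cadmium and were not called in the controls, so that none of these tests is independent of that choice.

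That comparison of organs is given as a description for the same reason. In Cd_R vs Cd_L the log2 fold change was 4.06 ± 0.72 (SE) for nitrate reductase 1 and 3.81 ± 0.97 (SE) for nitrate transporter 2.5. The root and leaf libraries overlapped for neither, with Cd_R higher, a state shared by 31.2% of all unigenes tested, and 40.9% of all unigenes tested were DEGs. In CK_R vs CK_L the reductase gave 2.04 ± 0.80 (SE) without overlap and with CK_R higher, as did 29% of all unigenes tested, of which 39.1% were DEGs. Without CK_L replicate 2 the reductase gave 3.70. The transporter gave 3.47 ± 1.39 (SE) there, with overlapping libraries. Without CK_R replicate 3 its value in the controls was 0.35, since CK_R replicates 1 and 2 held about as much of it as the leaves. Without Cd_R replicate 1 the values under cadmium were lower, at 3.04 for the reductase and 2.34 for the transporter.

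Cd_R replicate 1 and CK_R replicate 3, which stood apart over all unigenes, were also the root libraries richest in both members, as they were for 14.3% of the 55317 unigenes tested in roots. They held 84.2% of the summed CPM of nitrate transporter 2.5 in the 6 root libraries, a share reached by 0.857% of unigenes, and 60.7% of that of nitrate reductase 1, reached by 4.15%. The median over all unigenes was 33.2%. Within their own groups, Cd_R replicate 1 held 76.4% of the transporter in Cd_R and CK_R replicate 3 held 92.6% of the transporter in CK_R. For the reductase, Cd_R replicate 1 held 68.2% of Cd_R and CK_R replicate 3 held 43.8% of CK_R. The 2 libraries belong to different treatments, and what set them apart was not tested.

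A second unigene annotated as nitrate reductase, Cluster-14691.46130, carried most of the reductase counts. Its level was 130 ± 26.1 CPM in Cd_R, 96.1 ± 47.2 CPM in CK_R, 51.5 ± 14.6 CPM in Cd_L and 53.6 ± 15.6 CPM in CK_L (SD, n = 3 each). In Cd_R vs CK_R its log2 fold change was 0.43 ± 0.38 (SE), with an adjusted p of 0.9994 by edgeR. It was thus less uneven between organs than nitrate reductase 1, with a log2 fold change of 1.36 in Cd_R vs Cd_L and 0.89 in CK_R vs CK_L, where its libraries overlapped. The study singled out nitrate reductase 1 by the size of its difference in Cd_R vs Cd_L, so that this contrast is not independent of that choice. Reads that match both unigenes would be divided between them by RSEM, and their sequences were not at hand. The values of nitrate reductase 1 and of the transporter were exactly whole, as deposited, in 12 of 12 libraries, as for 75.3% of unigenes with a count, while those of Cluster-14691.46130 were whole in 1 of 12.

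Nitrate reductase 1 made up 47.2%, 21.4% and 19.6% of the counts of both reductase unigenes in the Cd_R replicates 1 to 3, against 21.9%, 15.7% and 37.1% in the CK_R replicates 1 to 3. In leaves its share was 9.53%, 5.23% and 6.49% in Cd_L, against 5.08%, 20.3% and 4.18% in CK_L. The exact 95% binomial interval (Clopper-Pearson, counting error only) was 46.1% to 48.3% for Cd_R replicate 1, 35.4% to 38.9% for CK_R replicate 3 and 18.3% to 22.4% for CK_L replicate 2. These 3 libraries had the largest share of their groups, though other replicates of a group, such as CK_R replicates 1 and 2, also differed by more than counting error, which leaves out the spread between plants and the division of shared reads. Mean shares were 29.4% in Cd_R and 24.9% in CK_R, a difference of 4.49 points (exact two-sided permutation test, p = 0.7, where 0.1 is the smallest p possible). In leaves they were 7.09% in Cd_L and 9.86% in CK_L (same exact test, p = 1). With the counts of both unigenes summed, the log2 fold change of Cd over CK was 0.63 in roots and −0.13 in leaves.

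**Figure D3:**
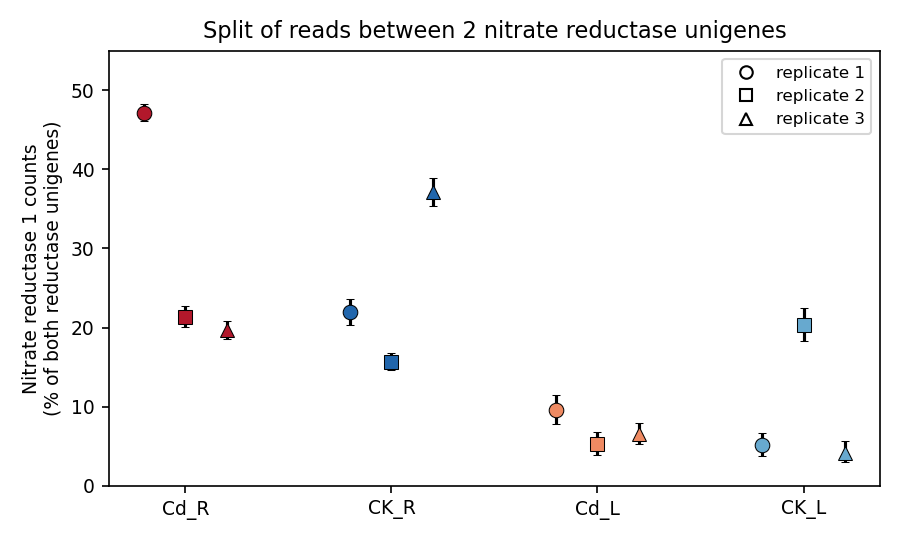
Counts on nitrate reductase 1 as a percentage of the counts on both nitrate reductase unigenes, with 1 point per library and bars for the exact 95% binomial interval of the counts. Cd_R replicate 1 at 47.2% and CK_R replicate 3 at 37.1% lay above the other roots, and CK_L replicate 2 at 20.3% above the other leaves.

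The study's nitrogen list holds 9 unigenes, the 2 members, the second reductase, an aspartate aminotransferase and 5 C-terminally encoded peptides (CEP). All 9 were tested in roots and had positive log2 fold changes in Cd_R vs CK_R, with 0 DEGs and a median of 2.36 against −0.02 over all unigenes. The median is the value of a CEP unigene, and the 3 with an unadjusted p under 0.05, against 4.62% of all unigenes, were CEP unigenes too, while the 4 others ran from 0.08 to 1.21. The study chose this list on the same libraries, so that the common direction is not independent evidence. In leaves 4 of the 9 could be tested, of which 1 had a positive and 3 a negative value, with 0 DEGs. The 8 other nutrient unigenes of the study, for phosphate and iron, had a median of 0.22 in roots with 5 positive, 3 negative and 0 DEGs.

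Cluster-14691.70929, an aspartate aminotransferase, which passes amino groups between glutamate and aspartate, had 5.98 ± 3.57 CPM in Cd_R, 2.55 ± 1.19 CPM in CK_R, 2.27 ± 0.69 CPM in Cd_L and 1.93 ± 0.26 CPM in CK_L (SD, n = 3 each). Its log2 fold change in roots was 1.21 ± 0.55 (SE), with an adjusted p of 0.9994 by edgeR. In leaves the value was 0.24.

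The 5 CEP unigenes encode precursors of secreted peptides, which in Arabidopsis signal nitrogen shortage from roots to shoots and act on nitrate transporters of the root. They had no count in any of the 6 leaf libraries. They passed the filter on low counts in roots mainly through Cd_R, and were highest in Cd_R replicate 2, not in the libraries that were richest in the members. Within CK_R, however, replicate 3 held 82.1% to 100% of each CEP unigene, from at most 45 counts, except Cluster-14691.1485, of which it held 23.4%. Cluster-14691.1727 had 15, 165 and 47 counts in Cd_R, against 0, 0 and 10 in CK_R, which did not overlap, as for 5.44% of all unigenes tested with Cd_R the higher group. It entered the test through its counts in Cd_R, so that its log2 fold change and missing overlap are not independent of the filter. Cluster-14691.82632, with the most counts, had 12, 347 and 122 counts in Cd_R, against 4, 0 and 45 in CK_R, which overlapped. Log2 fold changes in Cd_R vs CK_R ran from 2.36 for Cluster-14691.1485 to 4.48 for Cluster-14691.1727, and all 5 had an adjusted p of 0.9994 by edgeR.

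**Figure D4:**
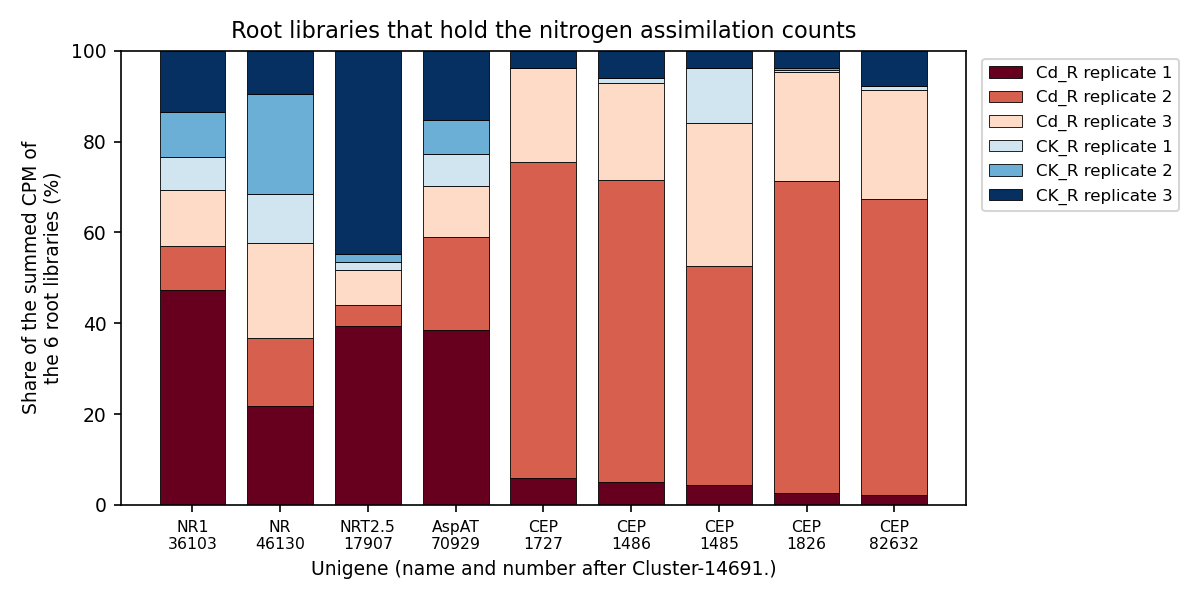
Share of the summed CPM of the 6 root libraries that each library held, in percent, for the 9 unigenes of the nitrogen list (NR1, nitrate reductase 1, NRT2.5, nitrate transporter 2.5, AspAT, aspartate aminotransferase). Cd_R replicate 1 and CK_R replicate 3 held 84.2% of NRT2.5 and 60.7% of NR1, whereas Cd_R replicate 2 held the largest part of each CEP unigene.

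Profiles over the 12 libraries were compared by the root mean square difference of log2 CPM, each centred on its own mean. Closest to nitrate reductase 1 were Cluster-14691.1139, at 0.41 log2 units, and Cluster-14691.8318, at 0.51. Cluster-14691.1139 had 8.38, 2.51 and 2.31 CPM in Cd_R, against 1.38, 1.48 and 3.89 CPM in CK_R, so that it too was highest in Cd_R replicate 1. Closest to nitrate transporter 2.5 were Cluster-14691.6376, at 0.70 log2 units, and Cluster-14691.8648, at 0.72. Cluster-14691.6376 had 3.75, 0.788 and 1.05 CPM in Cd_R, against 0.181, 0.480 and 7.91 CPM in CK_R, with the same 2 libraries on top. The 2 members differed from each other by 1.2 log2 units, and the reductase was number 500 of 61241 unigenes in likeness to the transporter, and the transporter number 3905 in likeness to the reductase. The 4 nearest unigenes carry no name here. Each was picked for its likeness over these same 12 libraries, so that its top libraries followed from that choice.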

How the data were processed

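The authors sequenced poly-A libraries of leaves and roots with paired-end reads, assembled the reads with Trinity and clustered the transcripts with Corset. They deposited RSEM expected counts by unigene and library, without normalization or filtering. Shared reads are divided between similar unigenes in such estimates. Counts were rounded to whole numbers, and 54 of 126668 unigenes had none.

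Groups and replicates were read from the sample labels. The quasi-likelihood test of edgeR 4.0.16 (R 4.3.3) with TMM and filterByExpr was fitted over all unigenes, without a block. Each pair of groups was fitted on its 6 libraries, and the interaction on all 12. The study describes pots in a randomized block layout, which these fits leave out. The labels do not say whether the replicate number is the block, and fits with it as a block are given as an alternative. P-values were adjusted by Benjamini-Hochberg over all unigenes tested. The SE is the log2 fold change over the square root of F. Intervals reach 1.96 SE to either side, which with so few libraries is narrower than an interval from the F distribution would be. Alternatives were RLE factors, library totals, scaling to a CDKC-2 unigene, 2 other filters, DESeq2 1.42.0, 1 fit over 12 libraries, the block, left-out libraries and summed reductases. Tests were tried on simulated data.

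Unigenes named are the members, the study's nitrogen list and the 2 nearest profiles (prior count 2). The members and lists were chosen with earlier results of these data known. Columns of the authors' own comparisons were not used.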

Additional observations from a re-analysis of the deposited data

How the results depend on the processing

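Over the alternatives run, adjusted p for Cd over CK in roots ranged from 0.610 to 1 for nitrate transporter 2.5 and from 0.725 to 1 for nitrate reductase 1, in leaves from 0.887 to 1 and from 0.618 to 1, and in the interaction from 0.9999 to 1 for both, so that neither became a DEG in any of them. With single libraries left out, log2 fold changes of Cd over CK in roots ran from −1.43 to 3.26 (transporter, reversed without Cd_R replicate 1, CK_R replicate 1 or CK_R replicate 2) and from 0.09 to 1.53 (reductase). In leaves they ran from −0.69 to 0.61, reversed without CK_L replicate 2 or Cd_L replicate 3, and from −1.32 to 0.84, reversed without CK_L replicate 2. In the interaction they ran from −1.14 to 3.42, with 5 of 12 reversed, and from 0.32 to 2.5. In Cd_R vs Cd_L the ranges were 2.34 to 4.26 and 3.04 to 4.43, and in CK_R vs CK_L 0.35 to 4.30 and 1.52 to 3.70. DEG counts stayed at 0 in the treatment comparisons and the interaction, and ran from 19808 to 25311 in Cd_R vs Cd_L and from 16806 to 22277 in CK_R vs CK_L. The difference in reductase share ran from −4.40 to 10.6 points in roots and from −5.62 to 2.45 points in leaves.

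DESeq2 called 186, 73 and 10 DEGs in Cd_R vs CK_R, Cd_L vs CK_L and the interaction, and edgeR without a filter called 2 in leaves. Without both divergent roots, Cd_R vs Cd_L gave 2.34 for the transporter and 3.04 for the reductase, and CK_R vs CK_L gave 0.35 for the transporter. Summed reductases gave 1.83 in Cd_R vs Cd_L. With a prior count of 0.5, 0 of the 2 unigenes most like the transporter and 1 of the 2 most like the reductase were shared, and the reductase was number 200 in likeness to the transporter. The cause was not tested in these cases.

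The replicate number as a block gave 1.16 (transporter) and 0.76 (reductase) in roots, −0.10 and −0.11 in leaves, and 0.43 and 1.83 in the interaction, with 0 DEGs in each. In Cd_R vs Cd_L it gave 3.43 and 3.77, and in CK_R vs CK_L 1.75 and 2.72, against 3.47 and 2.04 without it. Deviations of same-numbered libraries correlated at −0.386 to 0.434. Leaf with root gave 0.0828 to 0.197 within CK and −0.128 to 0.0602 within Cd, too few pairs to settle pairing. With 3 libraries per group the intervals are wide, and leaf levels of the transporter rest on 3 to 28 counts.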
